A study of Citrus sinensis with 48 samples.

Results

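The leaves of Carrizo citrange, a hybrid rootstock of trifoliate orange and sweet orange (Poncirus trifoliata x Citrus sinensis), were compared under high light, heat stress and both at once, and the question was where the joint response differed from what the single responses multiply to. The comparison rests on 12 of the 48 leaf libraries in the series, 3 biological replicates each: CT (control), HL (high light), HS (heat stress) and HL+HS (both), and on all genes of the table. None of these 4 groups carried water stress. The same contrast exists in 12 other Carrizo libraries under water stress (WS, WS+HL, WS+HS and WS+HL+HS) and in 12 libraries of Cleopatra mandarin (Cleo; CT, HL, HS and HL+HS), and both serve for comparison at the end. How strong and how long each stress was is not stated in the labels, and nothing beyond the word biological says how replicates were grown. The p-values thus reflect a spread among libraries, estimated over all 48 of the series, that may be technical in part.

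For each gene the departure is the log2 fold change of HL+HS against CT minus those of HL and of HS. A departure of 0 means that the 2 single fold changes multiply in the combination. A positive value means that HL+HS lay above the product of the single folds, and a negative value that it lay below, whichever way the gene responded. Departures were tested with edgeR's quasi-likelihood test and called at an adjusted p (Benjamini-Hochberg) below 0.05. Levels are CPM (counts scaled to a common library total) after TMM scaling, given for replicates 1, 2 and 3 in that order; they are not divided by gene length, so they compare libraries and not genes. Fold changes and departures are log2 values ± SE.

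Light beyond what photosynthesis can use drives the leaf to shed energy as heat and to make reactive oxygen, and early light-induced proteins (ELIPs) and the xanthophyll cycle protect the photosystems. Heat unfolds proteins and releases heat stress transcription factors, which switch on chaperones. Small heat shock proteins hold unfolded proteins, and the HSP70, HSP90 and HSP100 machines refold them. In the field both come together, and a response to the pair need not follow from the response to each.

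The 12 libraries held 40294831 to 56179699 counts and 22599 to 23087 detected genes. Each correlated best with a library of its own group, with a lowest correlation within a group of 0.979 and a highest between groups of 0.975. The first principal component held 48.5% of their variance and put CT and HL on one side and HS and HL+HS on the other, and the second held 23.4% and put CT and HS on one side and HL and HL+HS on the other. Genes of the photosystems and light harvesting summed to between 31500 and 69200 CPM in each library, so the leaf markers were present throughout. Some column names carry an unexplained mark, in Carrizo on CT replicates 1 and 3, HL replicate 1 and all 3 of HS, and on none of HL+HS. The contrast therefore takes up -0.667 of any effect of the mark, and since all 3 HS libraries carry it, no value from unmarked libraries can be given beside it. When the mark was fitted as a term, 6158 of the 6599 called genes (93.3%) kept their call and sign, and in a fit of the 24 Carrizo libraries alone with the same term 6013 (91.1%) did; no called gene changed sign in either. HL replicate 1 is the library with most influence: without it 7775 genes were called, and 6065 (91.9%) of the first 6599 kept their call and sign.

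Of 23721 genes tested, 6599 departed from the product (27.8%), 2840 above it (12%) and 3759 below it (15.8%). At least 2-fold departures were fewer, 638 above and 1307 below, and 209 and 325 genes departed at least 4-fold. The median departure over all genes was -0.08. For scale, HL alone called 4379 genes (18.5%), HS alone 13912 (58.6%) and HL+HS 14445 (60.9%) against the same CT libraries. These comparisons share libraries with the departure, so the grouping that follows is a description.

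By their single responses, the largest class of departing genes was made of 2468 that responded to HS and not to HL and departed against the direction of HS. Of the 1545 genes among them that HS had raised, 767 no longer differed from CT by the test under HL+HS, and of the 923 that HS had lowered, 349 did not. A further 851 genes responded to HS alone and departed in its direction. Responses to both single stresses in the same direction fell short of the product in 820 genes and went beyond it in 291, and in 522 genes HL and HS acted in opposite directions. HL alone was the only single response in 417 genes, 252 with a departure against it and 165 with it. In 1050 genes neither HL nor HS was called and HL+HS was, and in the remaining 180 none of the 3 was.

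**Figure D1:**
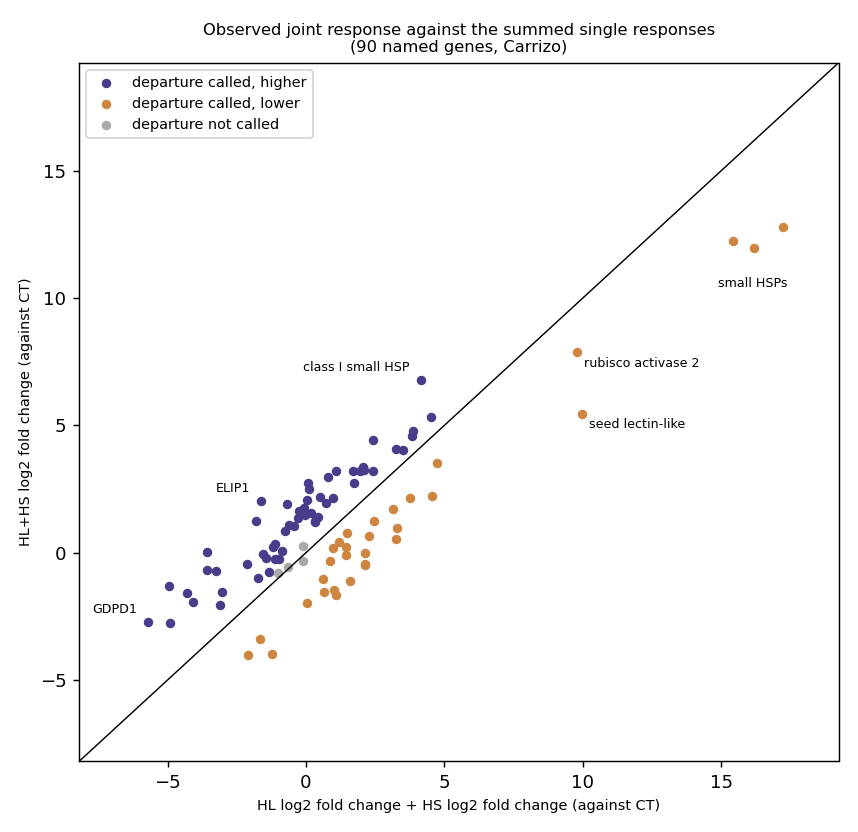
Log2 fold change of HL+HS against CT (vertical) plotted over the sum of the log2 fold changes of HL and of HS (horizontal) for 90 of the genes named in the text; the line marks equality, and colour gives the called direction. The 3 small heat shock proteins at the upper right lie below the line although they are the most strongly raised genes plotted, and genes of weak or opposed single responses lie on both sides of it.

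Chaperone genes departed both ways in each of their classes, in differing shares. The heat stress transcription factors, which bind the promoters of chaperone genes, departed upward in 9 of 22 tested and downward in 0 (median 0.35), against 12% and 15.8% of all genes. With the mark as a term, or with only the 12 libraries, 1 factor lay below the product, and without HL replicate 1 3 did. HSF24 (LOC102622704) measured 35.2, 37.4 and 38.4 CPM under CT, 104, 97.7 and 110 under HL, 50.2, 52.4 and 50.1 under HS and 349, 343 and 333 under HL+HS. Its 4 groups did not overlap, and the product of the single folds would have given 143 CPM (departure 1.25 ± 0.09, adjusted p = 1.41e-14). The change was 1.49 ± 0.06 under HL, 0.46 ± 0.06 under HS and 3.21 ± 0.07 under HL+HS. Factors B-2a (LOC102626069, 0.78 ± 0.08) and B-2b (LOC102619398, 0.97 ± 0.10), of a class that acts mainly as repressors, also lay above the product, and B-2b was lower than CT under HS alone (-0.41 ± 0.08). A-7a (LOC102620280), an activator, rose under HL (1.71 ± 0.08), fell under HS (-1.38 ± 0.08) and stood above CT under HL+HS (1.21 ± 0.08; departure 0.88 ± 0.11). On the CPM scale A-7a reached 306 under HL+HS against the 351 that adding the single changes gives, a departure of -45.4 ± 19.1 (SE) CPM with the opposite sign.

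The large chaperones of the HSP70, HSP90 and HSP100 families departed upward in 14 of 27 and downward in 7 (median 0.43), against 12% and 15.8% of all genes. The genes described in this paragraph all departed upward, and no downward member of its lists is described. The cytosolic heat shock cognate 70 kDa protein 2-like (LOC102609521), an HSP70, measured 620, 538 and 693 CPM under CT, 2460, 2080 and 2240 under HL, 673, 774 and 678 under HS and 6000, 6760 and 6570 under HL+HS. HS overlapped CT, HL stood apart from both, and HL+HS was higher than all others and 2.48 times the product (departure 1.31 ± 0.10, adjusted p = 1.03e-13). HSP90, which matures signalling proteins, was lower than CT under HS (-0.45 ± 0.08) yet reached 1550, 1670 and 1620 CPM under HL+HS against 996, 854 and 920 under HL, a departure of 1.26 ± 0.11. Heat shock 70 kDa protein 14 (LOC102619242) was also highest under HL+HS, with CT and HS overlapping and a departure of 1.51 ± 0.10. In mitochondria ClpB4 (LOC102622978), which pulls proteins out of aggregates, departed by 1.17 ± 0.10. Chaperonin CPN60-2 (LOC102620413) departed by 0.81 ± 0.09, in a chaperonin list with 8 of 28 upward and 2 downward (median 0.04). There 13 were upward with the mark in the Carrizo fit, and 3 downward without CT replicate 2, 4 without HL replicate 1 and 1 without HL replicate 3. Of the genes that work with HSP90, the co-chaperone HOP3-like (LOC102624310) departed by 0.53 ± 0.08, the isomerase FKBP62 (LOC102614954) by 0.73 ± 0.10 and the HSP90 ATPase activator (LOC102621083) by 0.81 ± 0.09. Their list of co-chaperones departed upward in 5 of 17 and downward in 4 (median 0.09), with 2 downward without CT replicate 3 or HL replicate 3. DnaJ proteins, which feed clients to HSP70, departed upward in 16 of 54 and downward in 8; ANJ1 (LOC102627308) reached 3280, 3340 and 3320 CPM under HL+HS from 122, 113 and 131 under CT (departure 0.89 ± 0.08). With only the 12 libraries in the fit, the downward counts were 4 for the large chaperones and 3 for the DnaJ proteins.

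Small heat shock proteins went both ways, 7 of 32 upward and 10 downward, with a median departure of -0.25 that came to -0.01 with genes at most 3 counts in a group set to that floor. A 17.4 kDa class I protein (LOC102613214) measured 2.95, 1.49 and 1.83 CPM under CT, 551, 366 and 361 under HL, 806, 843 and 679 under HS and 8270, 8940 and 8240 under HL+HS. All 4 groups stood apart and HL+HS was by far the highest. HL raised it by 7.67 ± 0.21 and HS by 8.53 ± 0.21, and the product of such folds, 158000 CPM, was not reached (departure -4.22 ± 0.24, adjusted p = 1.84e-17). Adding the single changes gives 1200 CPM, and HL+HS was higher than that by 7280 ± 243 (SE) CPM, so this gene lay below the product and above the sum. A second 17.4 kDa gene (LOC102626248, -4.46 ± 0.35) and the 22.0 kDa protein (LOC102630544, -3.19 ± 0.30) showed the same, with CT levels of 0.517, 0.0594 and 0.328 and of 2.88, 0.773 and 1.33 CPM. The 18.1 kDa class I protein (LOC102617602) departed the other way. It measured 1.68, 1.57 and 1.52 CPM under CT, 19.8, 11 and 12.1 under HL, 2.63, 3.49 and 3.24 under HS and 169, 186 and 173 under HL+HS, so that HL+HS was 6.27 times the product and again above every other group (departure 2.64 ± 0.24). The 21.7 kDa class VI protein (LOC102610272), lowered by HS (-1.45 ± 0.10) and raised by HL (1.20 ± 0.10), departed by 1.88 ± 0.14. Copies of small heat shock protein genes are near-identical and the labels do not say how reads that fit several were counted, so levels of single copies are uncertain. The median of the list turned positive in 3 settings (0.13 with the column mark in a Carrizo fit, 0.04 without CT replicate 2 and 0.02 without HS replicate 3), and 4 genes instead of 7 were upward without CT replicate 3 or without HS replicate 3.

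Over all called genes the choice of scale mattered less: 113 of 6599 (1.71%) had opposite signs in log2 and in CPM, 86 of them below the product and above the sum. A similar case outside the chaperones was the stress-inducible rubisco activase 2 (LOC102630057), which keeps the carbon-fixing enzyme rubisco active. It measured 65, 55.2 and 66.8 CPM under CT, 1620, 1500 and 1590 under HL, 1890, 2400 and 2350 under HS and 14300, 14800 and 14700 under HL+HS, and its 4 groups did not overlap. The departure was -1.93 ± 0.10 although HL+HS exceeded the sum of the single changes by 10800 ± 230 (SE) CPM. DREB2A (LOC102610198), a transcription factor of drought and heat responses, took the upward course, with 103, 100 and 111 CPM under HL+HS, 34.4, 25.9 and 30 under HL, and CT and HS overlapping at 4.13, 4.87 and 5.49 and 4.7, 4.05 and 3.63 (departure 2.03 ± 0.18).

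**Figure D2:**
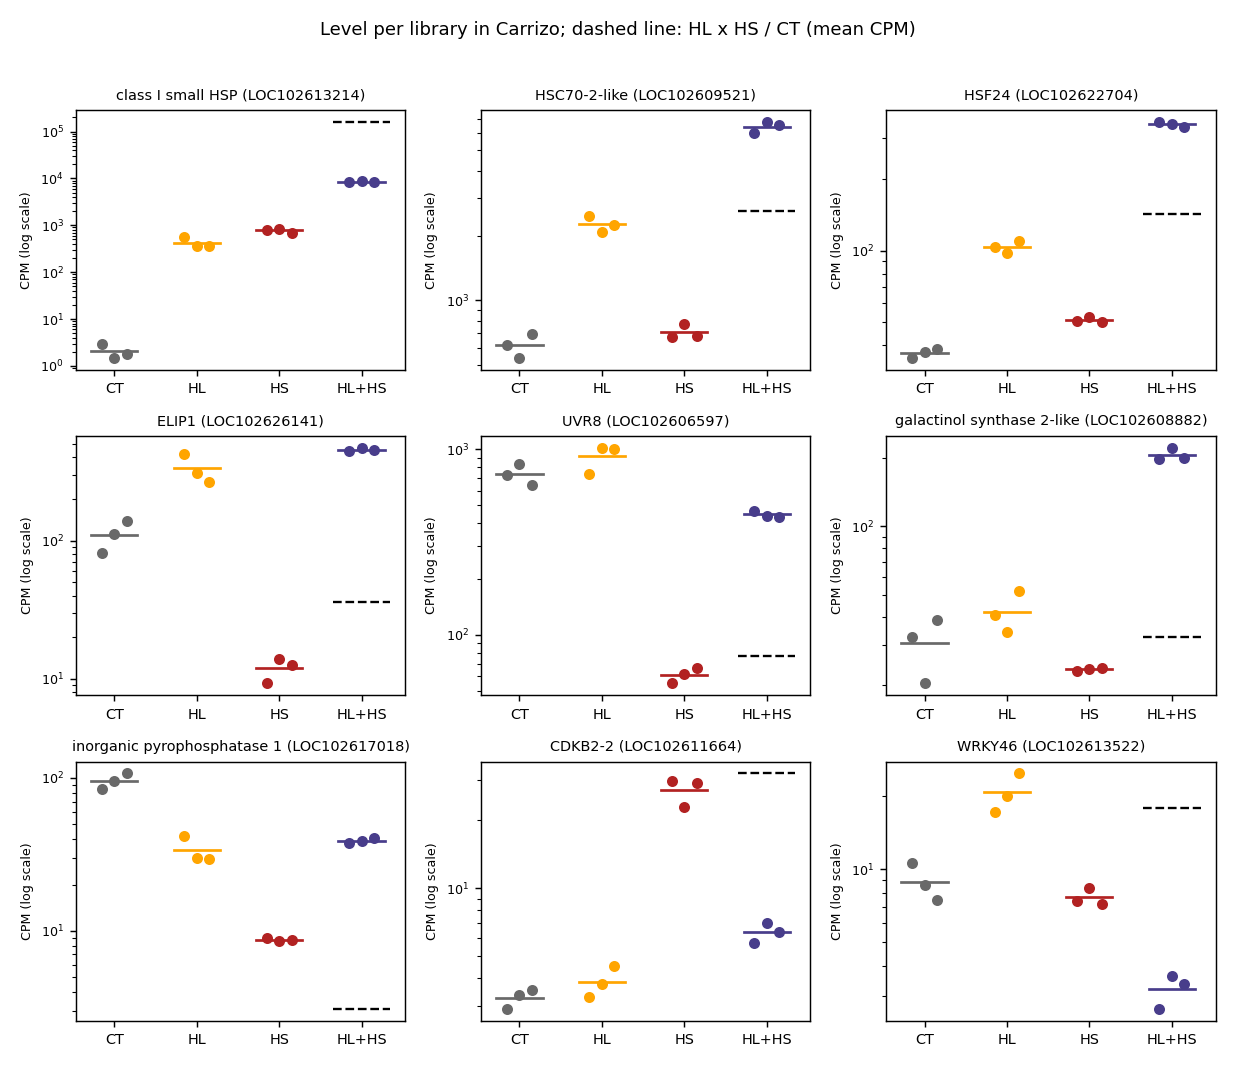
CPM on a log axis for each of the 12 libraries (points) with the group mean (solid line) for 9 genes; the dashed line over HL+HS is the mean of HL times the mean of HS divided by the mean of CT. HL+HS lies above the dashed line for HSC70-2-like, HSF24, ELIP1, UVR8, galactinol synthase 2-like and inorganic pyrophosphatase 1, and below it for the class I small HSP, CDKB2-2 and WRKY46.

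Genes that protect against light departed upward where they departed. Of 12 photoprotection genes tested 6 departed upward and 0 downward (median 0.26, or 0.43 without HL replicate 1). ELIP1 (LOC102626141), which binds free chlorophyll, measured 81, 111 and 139 CPM under CT, 424, 308 and 268 under HL, 9.27, 14 and 12.6 under HS and 443, 470 and 452 under HL+HS. HS took it far below CT, HL and HL+HS were above CT, and no 2 groups overlapped. The product would have given 36 CPM, and HL+HS was 12.6 times as high (departure 3.66 ± 0.19, adjusted p = 2.25e-18). The second ELIP1 gene (LOC102578039) ran 1050, 1080 and 1510 CPM under CT, 2290, 1650 and 1530 under HL, 218, 233 and 238 under HS and 2810, 2990 and 2810 under HL+HS, in the same order and without overlap (departure 3.06 ± 0.16). Both genes fell under HS and rose under HL+HS. They share a name and may share reads.

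UVR8 (LOC102606597), the receptor of ultraviolet-B light, measured 727, 830 and 642 CPM under CT, 734, 1020 and 1010 under HL, 54.7, 61.8 and 66.6 under HS and 466, 439 and 434 under HL+HS. HS lowered it (-3.59 ± 0.10), while HL+HS lay between HS and CT and apart from both (departure 2.54 ± 0.13). PGR5 (LOC102610738), needed for cyclic electron flow around photosystem I, ran 331, 283 and 383 CPM under CT, 372, 275 and 232 under HL, 133, 132 and 150 under HS and 270, 313 and 290 under HL+HS. HS alone was below the other 3 groups, which overlapped one another (departure 1.26 ± 0.20). Stress enhanced protein 2 (LOC102628507, 0.74 ± 0.11) and the PsbS protein of energy dissipation (LOC102630024, 0.56 ± 0.19) were also lowered by HS and less so under HL+HS. The PsbS call was lost with only the 12 libraries in the fit (departure 0.63, adjusted p = 0.137). It was also lost without CT replicate 3 (departure 0.40, adjusted p = 0.127) or HL replicate 2 (departure 0.46, adjusted p = 0.0849). The same held without HL replicate 3 (departure 0.39, adjusted p = 0.117) or HS replicate 1 (departure 0.51, adjusted p = 0.0596). Violaxanthin de-epoxidase (VDE, 0.22 ± 0.11, adjusted p = 0.151) and zeaxanthin epoxidase (LOC102577984, 0.08 ± 0.08, adjusted p = 0.49), the enzymes of the xanthophyll cycle, did not pass the test; VDE passed with the column mark as a term (0.36, adjusted p = 0.00266) and without HL replicate 1 (0.30).

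Enzymes that fix carbon and remove reactive oxygen were called above the product more often than below it. Photosystem genes showed the reverse, as did all genes (12% above and 15.8% below). Called in either direction were 43.2% of the Calvin list, 56.2% of the antioxidant list and 31.6% of the photosystem list, against 27.8% of all genes. In the Calvin cycle and photorespiration list 16 of 44 tested departed upward and 3 downward (median 0.24). Aldolase 1 of the chloroplast (LOC102606603) measured 4670, 3970 and 5630 CPM under CT, 7090, 5090 and 4700 under HL, 4480, 5110 and 5390 under HS and 11200, 11700 and 10600 under HL+HS. CT, HL and HS overlapped, and HL+HS was above every library of the other 3 (departure 0.92 ± 0.15). Glycine dehydrogenase (LOC102627653), which releases carbon dioxide in photorespiration, was lowered by HS (-1.13 ± 0.09) and stood at 2080, 2180 and 2120 CPM under HL+HS against 1040, 1250 and 1210 under HS (departure 0.86 ± 0.13). Of 32 antioxidant enzymes 15 departed upward and 3 downward (median 0.3). The iron superoxide dismutase of the chloroplast (LOC102612585) departed by 0.73 ± 0.13, and the catalase-like gene (LOC102615999), which HS raised (1.20 ± 0.08), departed by -0.76 ± 0.11. Among 38 genes of the photosystems and light harvesting 9 departed downward and 3 upward (median -0.25). The light-harvesting protein 151 (LOC102610533) was at 4690, 4750 and 5250 CPM under HS and at 2920, 3100 and 2870 under HL+HS, with CT and HL overlapping (departure -0.77 ± 0.18), and the oxygen-evolving enhancer 3-2 (LOC102620317) departed by -0.72 ± 0.15.

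These photosynthesis counts moved with the libraries used. When the mark was fitted in the Carrizo libraries, 27 Calvin genes, 23 antioxidant genes and 8 photosystem genes were upward, and the median of the photosystem list became 0.05. Without HL replicate 1, 26 Calvin and 7 photosystem genes were upward; with only the 12 libraries, 10 Calvin genes were upward and 3 photosystem genes downward, and the call of the light-harvesting protein 151 was lost (adjusted p = 0.0512). Without HL+HS replicate 3 or without HS replicate 3, 5 photosystem genes were downward. The Calvin median was 0.12 without CT replicate 3 or HL replicate 3, 0.15 without HL replicate 2 and 0.43 without HL replicate 1, where the photosystem median was -0.01.

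Several genes known from dehydration were highest under the pair. Galactinol synthase makes the galactinol from which raffinose and stachyose, sugars that protect membranes and proteins, are built. Of 13 genes of that pathway tested, 5 departed upward and 1 downward (median 0.3). The median was 0.05 without CT replicate 2, 0.19 without HL replicate 2 or HS replicate 3, 0.16 by DESeq2 and 0.11 with the mark as a term. Galactinol synthase 2-like (LOC102608882) measured 32.6, 20.4 and 38.7 CPM under CT, 40.6, 34.2 and 51.8 under HL, 23.2, 23.7 and 23.8 under HS and 198, 221 and 200 under HL+HS. CT overlapped both HL and HS, and HL+HS was above all of them (departure 2.67 ± 0.19, adjusted p = 6.13e-14). Stachyose synthase (LOC102611645, 2.11 ± 0.23) and the raffinose-making galactosyltransferases 2 (LOC102622912, 1.51 ± 0.10) and 5 (LOC102625978, 1.47 ± 0.20) were likewise highest under HL+HS, with no overlap with another group.

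Of 19 late embryogenesis abundant (LEA) proteins and dehydrins, hydrophilic proteins of dry tissues, 6 departed upward and 0 downward, with a median of 0.68 and of 1.15 at the floor of 3 counts. Without CT replicate 3 the median was 0.43 and without HL replicate 1 1.15; 1 gene was downward without HL replicate 1, CT replicate 2 or HL+HS replicate 1, by DESeq2, with the mark as a term and with only the 12 libraries. Dehydrin (DHN) measured 269, 254 and 283 CPM under CT, 347, 323 and 366 under HL, 178, 195 and 141 under HS and 670, 720 and 676 under HL+HS, 4 groups without overlap, with HS below CT and HL+HS above HL (departure 1.65 ± 0.12). LEA D-29 (LOC102613114) was lowered by HS to 8.05, 7.58 and 5.85 CPM from 33.9, 26 and 32.8 under CT and stood at 23.7, 23.7 and 21.5 under HL+HS (departure 1.70 ± 0.16). NAC72 (LOC102612201), a transcription factor of drought and abscisic acid responses, measured 23.8, 20.4 and 23.6 CPM under CT, 64.4, 61.4 and 56.4 under HL, 14.3, 16.2 and 13 under HS and 179, 174 and 182 under HL+HS. Its groups did not overlap, and HL+HS was 4.57 times the product (departure 2.19 ± 0.10, adjusted p = 1.82e-19). In the phosphatase 2C family, of which some members are negative regulators in abscisic acid signalling, number 75 (LOC102630401) departed by 1.83 ± 0.16 and the number 56-like gene (LOC102623733) by 1.16 ± 0.09. The list of abscisic acid signalling departed upward in 10 of 36 and downward in 7 (median 0.06, but -0.11 with the mark as a term, -0.06 without CT replicate 2 and -0.01 without HL replicate 2), with 4 downward without HL replicate 3 and 3 with only the 12 libraries. On the log2 scale the abscisic acid 8'-hydroxylase CYP707A1, which breaks the hormone down, went the other way, with 5.17, 6.36 and 3.71 CPM under CT and 0.253, 0.363 and 0.325 under HL+HS (departure -1.89 ± 0.34). Its HL+HS level rests on 12, 17 and 16 counts. On the CPM scale its departure was 0.234 ± 0.936 (SE), of the opposite sign and smaller than its SE.

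Aquaporins, the water channels of membranes, departed upward in 11 of 31 and downward in 5 (median 0.45). The downward count was 3 when CT replicate 1, HL replicates 1 or 3, HL+HS replicates 1 or 3 or HS replicates 1 or 2 were left out, and 2 with only the 12 libraries; the median was 0.16 by DESeq2 and 0.19 with no filter. Several PIP2-2-like genes of the plasma membrane were among those upward. LOC102608729 measured 30.5, 28.7 and 30.8 CPM under CT, 23.1, 18.5 and 20.4 under HL, 58.6, 63.6 and 64 under HS and 137, 143 and 129 under HL+HS, lowered by HL, raised by HS and highest under HL+HS, with no overlap (departure 1.67 ± 0.12). LOC102609769 (1.73 ± 0.11), LOC102609305 (2.03 ± 0.23) and LOC102609017 (2.59 ± 0.31) were also highest under HL+HS in all 3 libraries. The genes share a description and may share reads.

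Phosphate, starch and nitrogen genes departed upward in 17 of 50, 18 of 42 and 20 of 69, with 6, 2 and 8 downward (medians 0.08, 0.23 and 0.27), against 12% and 15.8% of all genes. Of the 50 phosphate genes HL lowered 21, HS 26 and HL+HS 28, against 8.77%, 26.3% and 31.4% of all genes tested. Inorganic pyrophosphatase 1 (LOC102617018), which frees phosphate from pyrophosphate, measured 84.1, 96.1 and 107 CPM under CT, 41.5, 29.9 and 29.4 under HL, 8.99, 8.56 and 8.69 under HS and 37.4, 38.6 and 40.5 under HL+HS. HL and HL+HS overlapped, HS was below both, and CT was above all (departure 3.66 ± 0.16, adjusted p = 1.15e-20). GDPD1 (LOC102608187), which recovers phosphate from lipid breakdown, ran 64.3, 72.7 and 66.9 CPM under CT, 9.44, 9.64 and 12.1 under HL, 8.85, 8.53 and 8.2 under HS and 11.2, 10.1 and 9.46 under HL+HS. HL and HL+HS overlapped, and all 3 treatments were below CT by a like amount (-2.71 ± 0.14, -2.99 ± 0.14 and -2.73 ± 0.14). The product of the 2 falls lies far lower, so the departure was upward (2.97 ± 0.19). SPX domain protein 1 (LOC102629287), a phosphate sensor, ran likewise (-2.21 ± 0.09 under HL, -1.86 ± 0.09 under HS and -1.94 ± 0.09 under HL+HS; departure 2.13 ± 0.13), and so did SQD2 (LOC102615235, 1.47 ± 0.14), which makes sulfolipid in place of phospholipid. GDPD3-like (LOC102610916) differed, with CT, HL and HS between 11 and 15.9 CPM and HL+HS at 80.4, 75.7 and 80 (departure 2.40 ± 0.10, adjusted p = 1.03e-20).

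In starch metabolism, granule-bound starch synthase 1 (LOC102577951), which makes amylose, measured 1080, 1010 and 1190 CPM under CT, 761, 577 and 547 under HL, 209, 228 and 226 under HS and 251, 273 and 274 under HL+HS (departure 1.06 ± 0.11). Its groups did not overlap, and HS and HL+HS lay lowest. Isoamylase 3 (LOC102616082), which debranches starch for breakdown, was lowered by HS, while HL and HL+HS overlapped CT, and departed by 0.91 ± 0.09. The nitrate and peptide transporter NPF4.3-like (LOC102620976) departed by 2.17 ± 0.24 after falls under HL and HS. Asparagine synthetase 1 (LOC102628580), which stores nitrogen as asparagine, departed downward; it measured 1.48, 0.951 and 1.59 CPM under CT, 2.89, 1.76 and 1.1 under HL, 26.6, 23.2 and 16.8 under HS and 5.86, 6.76 and 6.43 under HL+HS, where HS stood far above the rest and HL overlapped CT (departure -2.32 ± 0.25). With only the 12 libraries 5 nitrogen genes were downward, and without CT replicate 2 10 phosphate genes were. The phosphate median was 0.03 without CT replicate 3 and 0.05 without HL replicate 2 or HS replicate 3. In starch metabolism 1 gene was downward when CT replicate 3, HL replicates 2 or 3, HL+HS replicates 2 or 3 or HS replicates 1 or 2 were left out.

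The lists of dividing cells, wall loosening and auxin held more members below the product than above it, as did all genes (15.8% and 12%). Called in either direction were 30.1%, 25.5% and 34.5% of these lists, against 27.8% of all genes. Of 73 genes of dividing cells 19 departed downward and 3 upward (median -0.52). HS raised 45 of them and HL+HS 17, against 32.3% and 29.5% of all genes tested. The cyclin-dependent kinase B2-2 (LOC102611664), active at entry into mitosis, measured 2.92, 3.37 and 3.54 CPM under CT, 3.3, 3.77 and 4.51 under HL, 29.9, 22.8 and 29.2 under HS and 5.73, 7 and 6.43 under HL+HS. CT and HL overlapped, HS was highest and HL+HS was 0.198 times the product (departure -2.33 ± 0.29, adjusted p = 2.62e-08). Kinesin KIN-12B (LOC102618774), a motor of the dividing cell plate, departed by -1.62 ± 0.23. The summed level of the 73 genes ran from 2660 to 3160 CPM in CT, 2170 to 2600 in HL, 2810 to 3020 in HS and 2260 to 2370 in HL+HS. In this sum HL+HS overlapped HL (means 2310 and 2330 CPM) and HS overlapped CT (2950 and 2890), so it showed no fall particular to the pair. For the single genes in whole leaves, fewer dividing cells and less RNA per cell cannot be told apart. The downward count was 30 with the mark in the Carrizo fit, and 10, 11 and 12 without HS replicate 1, HL+HS replicate 2 and HS replicate 3. The upward count was 9 with the mark in the Carrizo fit, and 5 without HL replicate 1.

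Among 137 genes of wall loosening and pectin 29 departed downward and 6 upward (median -0.36). Xyloglucan endotransglucosylase 9 (LOC102627322), which cuts and rejoins wall polymers, measured 15.3, 14 and 14.8 CPM under CT, 7.22, 5.44 and 10.2 under HL, 126, 124 and 122 under HS and 12.7, 16.2 and 15 under HL+HS. HS was far above the rest, HL was lowest and HL+HS overlapped CT (departure -2.14 ± 0.27). Another of the family (LOC102621846) had the same order and overlap (departure -1.57 ± 0.20). Expansin-A1 (LOC102606649), which loosens walls without cutting them, went against the list, at 28.4, 22.9 and 46.9 CPM in CT, 20.9, 10.6 and 10.5 in HL, 3.83, 3.89 and 3.98 in HS and 10.5, 11.6 and 10.6 in HL+HS (departure 2.71 ± 0.30). HL and HL+HS overlapped there. Without CT replicate 3, 19 wall genes were downward, and the median of the list was -0.2 by DESeq2 or with no filter. The epidermal markers, 19 of 22 tested, summed to 1480 to 1850 CPM in CT, 1120 to 1580 in HL, 894 to 968 in HS and 946 to 1020 in HL+HS. Guard cell markers, 18 tested, departed downward in 4 and upward in 0 (median -0.97). Called were 22.2% of them, against 27.8% of all genes. In 4 of the 18 a group held at most 3 counts, and the median at that floor was -1.1. The guard cell markers summed to 33.8 to 67.8 CPM in CT, 44.5 to 74.4 in HL, 56.9 to 67.2 in HS and 45.9 to 50.1 in HL+HS. With 1 library left out the downward count ran from 0 (without CT replicate 3) to 4, and without HL replicate 3 the median was -0.43. The downward count was 1 by DESeq2, 6 with the mark as a term and 8 of 16 with it in the Carrizo fit. The part of either marker list in these results was not tested.

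Of 87 auxin genes 21 departed downward and 9 upward (median -0.35), among them the repressor IAA26-like (LOC102612399), at 84, 83.1 and 73.3 CPM under HS and 26.3, 30.2 and 27.9 under HL+HS (departure -1.21 ± 0.10). Gibberellin 20 oxidase 1 (LOC102608767), which makes active gibberellin precursors, was raised by HS (1.19 ± 0.14) and departed by -1.22 ± 0.20. The gibberellin list departed upward in 3 of 33 and downward in 4 (median 0.07, and -0.06 without HL replicate 2, where 6 were downward). A brassinosteroid synthesis enzyme, the 3-epi-6-deoxocathasterone 23-monooxygenase (LOC102610008), measured 27.5, 31.6 and 28.7 CPM under CT, 19.3, 18.7 and 15.8 under HL, 15.3, 14.4 and 15.4 under HS and 3.33, 2.24 and 2.66 under HL+HS. Each stress lowered it, and HL+HS was lowest by far, without overlap (departure -1.75 ± 0.16). Cellulose and xylan synthesis genes departed upward in 10 of 59 and downward in 9 (median -0.06). Cellulose synthases 7 (LOC102616000, 1.44 ± 0.49) and 8 (LOC102629226, 1.42 ± 0.54) of the secondary wall passed the test, with CT overlapping all 3 other groups. Their departures were 0.73 (adjusted p = 0.0511) and 0.65 (adjusted p = 0.135) with the mark as a term. The call of number 7 was lost without CT replicate 2, HL replicate 1, HL+HS replicate 2, HS replicate 2 or HS replicate 3 (1.11 to 1.40), and that of number 8 without any 1 of those or of CT replicate 1, HL replicate 2 and HL+HS replicate 1 (1.15 to 1.48). Vascular markers, 24 of 25 tested, departed upward in 5 and downward in 3 (median 0.52; 0.27 without CT replicate 2 and 0.11 with the mark as a term). They summed to 359 to 417 CPM in CT, 242 to 293 in HL, 216 to 298 in HS and 259 to 322 in HL+HS, and their part in the cellulose results was not tested.

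Among defence and storage proteins, a seed lectin-like gene (LOC102628131) had the lowest departure among the genes named, -4.52 ± 0.17 (adjusted p = 3.08e-22). It measured 43.5, 44.2 and 34.2 CPM under CT, 548, 402 and 376 under HL, 3560, 3720 and 4080 under HS and 1920, 1680 and 1780 under HL+HS; the 4 groups stood apart, and HL+HS lay under HS although both single stresses raised the gene. The 21 kDa seed protein-like gene (LOC102621677), of the Kunitz inhibitor kind, measured 94.2, 78.8 and 93.4 CPM under CT, 387, 283 and 248 under HL, 279, 240 and 224 under HS and 127, 132 and 124 under HL+HS. HL and HS overlapped and HL+HS was under both, above CT (departure -2.74 ± 0.20). Of 24 protease inhibitors 8 departed downward and 1 upward, with a median of -0.9, or -0.52 at the floor. Without HL replicate 1 the median was -0.49 with 3 upward, and without CT replicate 2 it was -0.56; 2 were upward without HL+HS replicate 1, HL+HS replicate 3 or HS replicate 1. Kunitz trypsin inhibitor 2 (LOC102622270), which blocks digestive enzymes of insects, was raised by HS (4.09 ± 0.15) and departed by -1.24 ± 0.19, and the cystatin 5-like gene (LOC102628401) by -1.62 ± 0.17.

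WRKY factors, regulators of immunity, departed downward in 12 of 54 and upward in 5, and jasmonate genes in 12 of 36 and 5 (medians -0.16 and -0.22). Of all genes 15.8% departed downward and 12% upward. Called in either direction were 31.5% of the WRKY and 47.2% of the jasmonate genes, against 27.8% of all genes. WRKY46 (LOC102613522) measured 10.6, 8.6 and 7.46 CPM under CT, 17.2, 20 and 24.8 under HL, 7.41, 8.37 and 7.18 under HS and 2.66, 3.63 and 3.36 under HL+HS. HL raised it, HS overlapped CT, and HL+HS was below all other libraries (departure -2.47 ± 0.19, adjusted p = 1.68e-13). One WRKY40 gene (LOC102626219), raised by HL (3.12 ± 0.12), stood at 18.8, 20.2 and 21.8 CPM under HL+HS, between CT and HL (departure -1.24 ± 0.17). TIFY 10A-like (LOC102616825), a repressor of jasmonate signalling, was higher under HL (1.44 ± 0.24) and lowest under HL+HS (-1.66 ± 0.29; departure -2.74 ± 0.38). The ethylene-responsive factor 6-like gene (LOC102614444) departed by -1.44 ± 0.18 although HL, HS and HL+HS were all above CT. With only the 12 libraries, 7 WRKY and 8 jasmonate genes were downward. Without HS replicate 2 the WRKY median was -0.09, and 3 jasmonate genes were upward when CT replicate 3, HL replicate 3, HL+HS replicates 2 or 3 or HS replicates 2 or 3 were left out.

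Other genes departed as well. The ABC transporter C15 (LOC102615246) measured 41.8, 40.4 and 37.8 CPM under CT, 37.3, 44.2 and 36.9 under HL, 45.7, 40.9 and 38.6 under HS and 10.1, 10.2 and 9.82 under HL+HS. CT, HL and HS overlapped, and HL+HS was below all of them (departure -2.04 ± 0.14). A cytosolic sulfotransferase 15-like gene (LOC102609689), of a family that adds sulfate to small molecules, ran 80.5, 68.6 and 74.9 CPM under CT, 46, 40.9 and 45.3 under HL, 59.1, 51.7 and 49.7 under HS and 4.93, 5.63 and 3.7 under HL+HS, with falls of -0.76 ± 0.16 under HL, -0.48 ± 0.16 under HS and -3.97 ± 0.19 under both (departure -2.73 ± 0.24). Serine carboxypeptidase-like 18 (LOC102625654, -2.70 ± 0.21) rose under HL and was lowest under HL+HS. The disease resistance protein At5g63020 (LOC102630468, -2.61 ± 0.14) rose under both single stresses and was lowest under HL+HS, below CT in all 3 libraries. The amino acid transporter AVT1C (LOC102623467) measured 10.8, 9.09 and 6.48 CPM under CT, 6.35, 7.9 and 7.92 under HL, 45.8, 48.5 and 45 under HS and 5.56, 8.73 and 5.25 under HL+HS, so that the rise under HS was absent under HL+HS, where CT, HL and HL+HS overlapped (departure -2.58 ± 0.20). EXORDIUM-like (LOC102625424, -2.19 ± 0.19), named for growth promotion, likewise rose under HS and was lowest under HL+HS. In the other direction a beta-glucosidase 11-like gene (LOC102624507) measured 20.9, 16.5 and 21.7 CPM under CT, 26.6, 23.6 and 22.4 under HL, 1.03, 1.15 and 1.88 under HS and 20, 20.1 and 19.9 under HL+HS; HS took it down and HL+HS overlapped CT (departure 3.60 ± 0.19). The acyltransferase PDAT2 (LOC102608065), which makes storage oil, fell under HS (-3.10 ± 0.23) and less under HL+HS (-0.70 ± 0.21; departure 2.87 ± 0.31).

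Clock genes, which time daily rhythms, departed in 80.8% of the 26 tested, 13 upward and 8 downward (median 0.2). LNK1 (LOC102625815), a co-activator of evening genes, measured 153, 123 and 162 CPM under CT, 153, 110 and 103 under HL, 98.8, 108 and 108 under HS and 246, 275 and 266 under HL+HS; HL+HS was above all other libraries (departure 1.58 ± 0.13). LNK3 (LOC102613307) fell under HS alone (-1.43 ± 0.07) and overlapped CT under HL+HS (departure 1.52 ± 0.09). REVEILLE 1 (LOC102630458) ran 134, 124 and 123 CPM under CT, 262, 283 and 305 under HL, 60.2, 65.9 and 65.9 under HS and 385, 365 and 372 under HL+HS, lowered by HS and highest under HL+HS without overlap (departure 1.39 ± 0.08, adjusted p = 7.29e-18). REVEILLE 3 (LOC102620405) departed by 0.96 ± 0.08. Beyond the naming rule, and chosen after their values were seen, LHY-like (LOC102627326), a core morning gene, fell by 2.4 under HS and by 1.23 under HL+HS (departure 1.1 ± 0.12), and the evening gene GIGANTEA (LOC102626780) rose by 1.28 under HS and by 0.48 under HL+HS (departure -0.56 ± 0.1). The hour of sampling is not stated in the labels. With only the 12 libraries, 4 clock genes were downward.

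**Figure D3:**
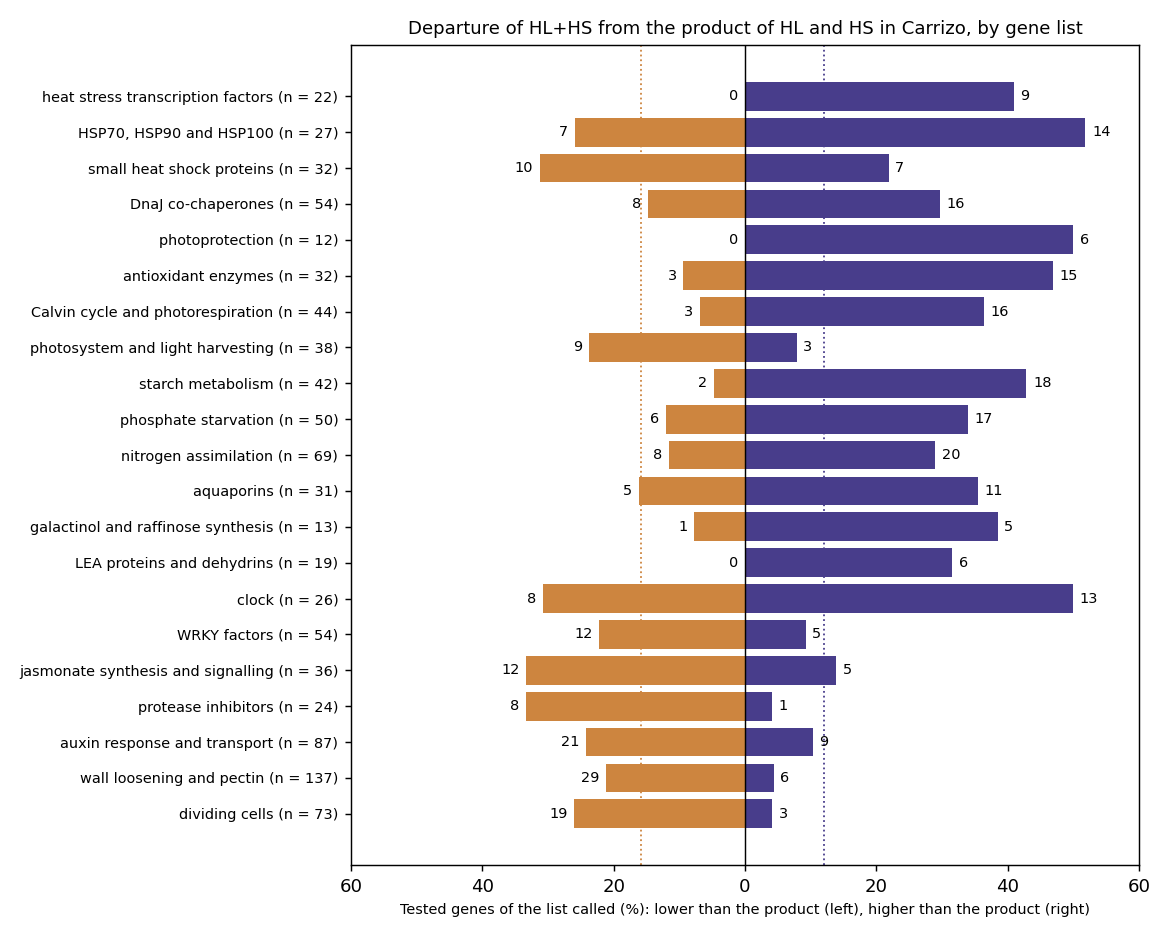
Share of the tested genes of 21 gene lists called above the product (right) or below it (left) in Carrizo, with the number of genes at each bar; dotted lines mark the shares among all 23721 genes, 12% and 15.8%. The photoprotection list has no gene below the product, nor do heat stress transcription factors and LEA genes as drawn (3 and 1 without HL replicate 1), and dividing cells, wall and protease inhibitor lists have few above it.

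Few translation genes departed. Of 166 cytosolic ribosomal proteins 10 departed upward and 1 downward, and of 42 plastid ribosomal proteins 0 and 1. These counts rest on the mark and on single libraries, since with the mark in the Carrizo fit 98 of 164 and 24 of 42 were upward and without HL replicate 1 43 and 18 were. HL+HS raised 111 of the cytosolic genes and HS 88, against the 29.5% and 32.3% of all genes given above.

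Under water stress the contrast was made of other libraries, so none is shared. There 6387 genes departed (26.9%), and the departure differed from that without water stress in 4168 (17.6%), higher under water stress in 1884 (7.94%) and lower in 2284 (9.63%). Without HL replicate 1 the difference was called in 6212 genes, 3451 of them lower, and without CT replicate 3 in 3319. ELIP1 (LOC102626141) was at 1500, 1540 and 1550 CPM under WS, 4320, 3920 and 3960 under WS+HL, 161, 160 and 148 under WS+HS and 550, 564 and 550 under WS+HL+HS. The triple stress stood between WS+HS and WS, apart from both, and the departure was 0.42 ± 0.18 in place of 3.66 ± 0.19 (difference -3.24 ± 0.26, adjusted p = 5.67e-12). The other ELIP1 gene (LOC102578039) differed by -2.30 ± 0.22. Inorganic pyrophosphatase 1 (LOC102617018) was already low under WS, at 12.5, 15.5 and 12.6 CPM, and did not depart there (0.15 ± 0.16; difference -3.51 ± 0.22). Galactinol synthase 2-like (LOC102608882) stood at 1130, 1260 and 1180 CPM under WS alone and at 796, 829 and 806 under the triple stress, with a departure of -0.02 ± 0.19 (difference -2.69 ± 0.27).

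NAC72 (LOC102612201) was at 1610, 1760 and 1720 CPM under WS, above every library without water stress, and lowest at 700, 683 and 707 under the triple stress (difference -2.33 ± 0.14). DHN (-1.26 ± 0.17), phosphatase 2C 75 (LOC102630401, -2.90 ± 0.21), the PIP2-2-like aquaporin LOC102609017 (-4.05 ± 0.50) and the 18.1 kDa small heat shock protein (LOC102617602, -3.21 ± 0.30) differed in the same direction. In the lists, the difference was lower in 10 of 31 aquaporins and higher in 0, lower in 8 of 19 LEA genes and higher in 1, and lower in 10 of 32 antioxidant genes and higher in 0. Cellulose synthase 8 (LOC102629226, -3.57 ± 0.84) and the thermospermine synthase ACAULIS5-like (LOC102622802), active in forming vessels, were lower too. The latter departed by -3.33 ± 0.29 under water stress and by 0.37 ± 0.25, not past the test, without it (difference -3.70 ± 0.39).

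Several defence and signalling genes differed the other way. WRKY genes were higher under water stress in 12 of 54 and lower in 3, and jasmonate genes in 10 of 36 and 2. The chloroplast lipoxygenase 3-1-like (LOC102622489), an entry enzyme of jasmonate synthesis, was at 40.1, 41.6 and 39.3 CPM under WS, 8.84, 8.62 and 8.64 under WS+HL, 16, 13.9 and 11.5 under WS+HS and 43.4, 37.7 and 39 under WS+HL+HS. Each added stress alone took it below WS and the pair did not, since WS and WS+HL+HS overlapped (departure 3.75 ± 0.26, difference 3.95 ± 0.36, adjusted p = 3.21e-10). Without water stress its departure of -0.20 ± 0.25 did not pass, but did with the mark as a term (-0.49). The ethylene-responsive factor 6-like gene (LOC102614444) departed by 2.28 ± 0.18 under water stress (difference 3.72 ± 0.26), and the CCCH zinc finger 29-like gene (LOC102627293) by 1.45 ± 0.11 against -1.66 ± 0.11 (difference 3.11 ± 0.16). WRKY46 (LOC102613522, 2.86 ± 0.26), WRKY40 (LOC102626219, 2.57 ± 0.23), TIFY 10A-like (LOC102616825, 3.98 ± 0.52), asparagine synthetase 1 (LOC102628580, 3.17 ± 0.30), AVT1C (LOC102623467, 3.00 ± 0.27) and CDKB2-2 (LOC102611664, 2.05 ± 0.43) were higher as well.

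**Figure D4:**
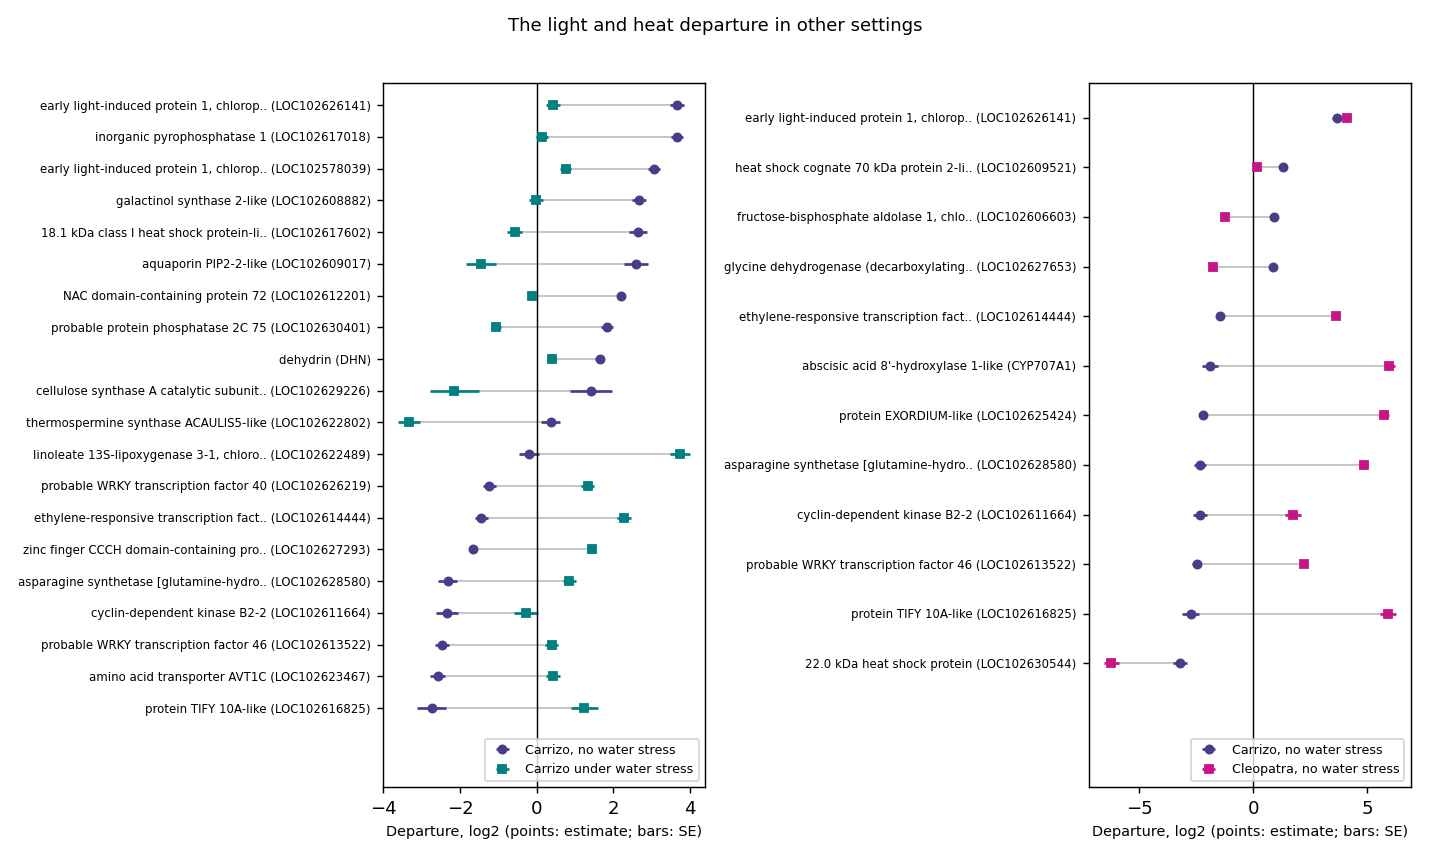
Departure in log2 with its SE for named genes, in Carrizo without water stress (circles in both panels), in Carrizo under water stress (squares, left) and in Cleopatra without water stress (squares, right); grey lines join the values of a gene. ELIP1 and inorganic pyrophosphatase 1 lie at 3.66 without water stress and at 0.42 and 0.15 with it in Carrizo, and TIFY 10A-like and CYP707A1 lie below 0 in Carrizo and at 5.91 and 5.97 in Cleopatra.

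In Cleopatra mandarin, a rootstock of another species, the departure differed from that in Carrizo in 8531 genes (36%). It was higher in 4569 (19.3%) and lower in 3962 (16.7%), and no library is shared. The column mark is on Cleopatra CT replicate 3 and HL+HS replicates 1 and 2, and both groups enter the contrast with a plus sign. The mark thus weighs on the Cleopatra contrast with the opposite sign to Carrizo (-0.667). The difference between the genotypes is therefore more exposed to the mark than either contrast. With the mark as a term, the 12 genes checked for this difference kept their test result and sign. List counts for Cleopatra were not rerun with the mark. CPM values for Cleopatra are means ± SD (n = 3) below, while departures and differences are still given ± SE. ELIP1 (LOC102626141) departed upward in both, by 4.09 ± 0.19 in Cleopatra, and a difference was not found (0.44 ± 0.26, adjusted p = 0.209), which does not show that they act alike; without CT replicate 3 of Carrizo the difference was 0.63 and passed. Some chaperones differed: the HSP70 gene LOC102609521 was at 6170 ± 211 CPM under HL and 6150 ± 202 under HL+HS in Cleopatra, so it departed by 0.15 ± 0.10 (difference -1.16 ± 0.14, adjusted p = 8.25e-09). HSP90 departed upward in both, by 1.41 ± 0.11 in Cleopatra, and a difference was not found (adjusted p = 0.514). Among large chaperones 14 of 27 were lower in Cleopatra and 3 higher. The 22.0 kDa small heat shock protein (LOC102630544) departed by -6.22 ± 0.33 there (difference -3.03 ± 0.46).

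Photosynthesis and translation lists differed between the genotypes. Photosystem genes were lower in Cleopatra in 28 of 38 and higher in 0, and Calvin genes lower in 25 of 44 and higher in 9. Aldolase 1 (LOC102606603) was at 17700 ± 824 CPM under HL, 18800 ± 1250 under HS and 14700 ± 2160 under HL+HS in Cleopatra (difference -2.14 ± 0.22), and glycine dehydrogenase (LOC102627653) was at 1300 ± 111 under HL+HS and 2100 ± 227 under CT (difference -2.60 ± 0.18). Cytosolic ribosomal proteins were higher in 134 of 166 and lower in 1; the counts in Carrizo moved with the mark, as given above.

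Some genes below the product in Carrizo were above it in Cleopatra. TIFY 10A-like (LOC102616825) was at 15 ± 4.08 CPM under CT, 1.45 ± 0.325 under HL, 2.63 ± 0.786 under HS and 15.1 ± 1.95 under HL+HS there, a departure of 5.91 ± 0.34 (difference 8.65 ± 0.50, adjusted p = 4.39e-17). CYP707A1 took the same course (5.97 ± 0.26, difference 7.86 ± 0.42), as did EXORDIUM-like (LOC102625424, difference 7.94 ± 0.27). Asparagine synthetase 1 (LOC102628580) reached 363 ± 15.7 CPM under HL+HS in Cleopatra from 11.1 ± 0.495 under HL and 20 ± 2.02 under HS (difference 7.16 ± 0.31), where Carrizo had its peak under HS. Further differences in that direction were found in the ethylene-responsive factor 6-like gene (LOC102614444, 5.05 ± 0.26), WRKY46 (LOC102613522, 4.68 ± 0.25) and CDKB2-2 (LOC102611664, 4.08 ± 0.45). WRKY genes as a list were higher in Cleopatra in 24 of 54 and lower in 2.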

How the data were processed

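Total RNA of citrus leaves was sequenced from TruSeq Stranded mRNA libraries, per the labels' protocols. The submitters' processing notes name FastQC 0.11.7, HISAT2 2.1.0 and StringTie 2.1.3b, without settings. The name of the deposited table gives Csi_valencia_1.0, an assembly of sweet orange, as the genome build. The authors deposited, for each library and gene, a read count, an FPKM value and a TPM value. Only the counts were used; the deposited FPKM and TPM values entered no test.

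Counts of all 48 libraries were scaled by TMM, filtered by filterByExpr over 16 groups (23721 of 30136 genes kept) and fitted with 16 group means and 32 residual degrees of freedom by edgeR 4.0.16 (robust quasi-likelihood, R 4.3.3, limma 3.58.1). P-values were adjusted by Benjamini-Hochberg over all genes tested within each comparison and called below 0.05. In 2002 tested genes a group held at most 3 counts, where a fitted fold change depends on the prior count. Medians at that floor were given for the small heat shock protein, LEA, protease inhibitor and guard cell lists only. The chaperonin median, 0.04 as reported, was 0.2 at the floor. DESeq2 1.42.0, its size factors, no filter, a replicate block, the column mark, fewer libraries and each library left out were alternatives. The Carrizo fit with the mark was added after the data were seen.

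The genes and lists were chosen with earlier results of these data known. Lists came from words in the gene descriptions. Genes were named by size of departure (a mean log2 CPM of at least 3), by class, and by p within lists; the text describes a selection of those, made with their values in view. Same-numbered replicates were not paired: their deviations from the group means correlated between -0.16 and 0.148.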

Additional observations from a re-analysis of the deposited data

Results flagged for a closer look

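The size of the departure differed with water stress in 4168 genes and between Cleopatra and Carrizo in 8531, each by a test of the difference itself (edgeR's quasi-likelihood test, adjusted p below 0.05). The genes below are those named above, with the difference in log2.

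Under water stress the departure was lower for the 18.1 kDa small heat shock protein LOC102617602 (-3.21), the ELIP1 genes LOC102626141 (-3.24) and LOC102578039 (-2.30), galactinol synthase LOC102608882 (-2.69), DHN (-1.26) and the aquaporin LOC102609017 (-4.05). It was also lower for NAC72 LOC102612201 (-2.33), phosphatase 2C LOC102630401 (-2.90), pyrophosphatase LOC102617018 (-3.51), cellulose synthase 8 LOC102629226 (-3.57) and ACAULIS5-like LOC102622802 (-3.70). It was higher for asparagine synthetase LOC102628580 (3.17), CDKB2-2 LOC102611664 (2.05), WRKY46 LOC102613522 (2.86), WRKY40 LOC102626219 (2.57) and TIFY 10A-like LOC102616825 (3.98). The same held for ERF6-like LOC102614444 (3.72), AVT1C LOC102623467 (3.00), the zinc finger gene LOC102627293 (3.11) and lipoxygenase LOC102622489 (3.95).

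In Cleopatra the departure was lower than in Carrizo for the 22.0 kDa heat shock protein LOC102630544 (-3.03), the HSP70 gene LOC102609521 (-1.16), glycine dehydrogenase LOC102627653 (-2.60) and aldolase LOC102606603 (-2.14). It was higher for CYP707A1 (7.86), asparagine synthetase LOC102628580 (7.16), CDKB2-2 LOC102611664 (4.08), WRKY46 LOC102613522 (4.68), TIFY 10A-like LOC102616825 (8.65), ERF6-like LOC102614444 (5.05) and EXORDIUM-like LOC102625424 (7.94).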

How the results depend on the processing

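For the genes named above, neither the departure in Carrizo without water stress nor a difference from it given for water stress or Cleopatra changed sign under any alternative run. The comparison of HSP90 with Cleopatra was not rerun under the alternatives. The count of departing genes was 7130 by DESeq2 and 6565 with the replicate block, against 6599; same-numbered replicates share only a number. With the column mark as a term in the 24 Carrizo libraries, 4485 genes lay above the product, and the difference with water stress was called in 7068 genes, 3183 higher and 3885 lower; the cause was not tested. At an adjusted p below 0.01 the classes held 446 genes (both stresses alike, less than the product), 187 (more than it), 274 (opposed), 142 (HL only, against it) and 463 (HS only, with it), fewer by the construction of a stricter threshold. Leaving out each library in turn gave 5557 to 7775 departing genes in Carrizo, 2427 to 3532 above and 3110 to 4243 below. Under water stress it gave 5455 to 5875, 2323 to 2467 and 3105 to 3424, for the difference with water stress 3319 to 6212, 1466 to 2761 and 1853 to 3451, and for Cleopatra minus Carrizo 7865 to 8819, 3944 to 4659 and 3667 to 4160. Cellulose synthase 8 (LOC102629226) also lost its call with no filter (adjusted p = 0.0559) and with the replicate block (adjusted p = 0.0566). A fit of unmarked libraries only could not be made for the departure without water stress or for either difference, because every Carrizo HS library carries the mark. The share of promoters with stress motifs was not run.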
